A study of Rattus norvegicus with 19 samples.

Results

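The genes described here encode the proteasome. They were taken from the table of gene expression levels by symbol, as every row whose symbol starts with Psm, a letter from a to g and a number, and 48 of the 15597 genes in the table matched. Of these, 47 reached the level required for testing, an FPKM (fragments per 1e+06 sequenced and per kilobase of transcript) of 1 in at least 4 of the 19 libraries. The exception was Psmb11, the catalytic subunit of the thymus, which lay between 0.21 and 1.11 FPKM. The 48 genes fall into 7 subunits of the general alpha ring and its testis form Psma8, 4 structural beta subunits, 3 constitutive catalytic subunits (Psmb5, Psmb6 and Psmb7), 3 inducible catalytic subunits (Psmb8, Psmb9 and Psmb10), Psmb11, 6 ATPases and 11 other subunits of the 19S regulatory particle, 3 chaperones each for the assembly of the 19S and the 20S particle, the 4 activators Psme1 to Psme4 and the inhibitor Psmf1. The last match, Psmc3ip, is named for binding the ATPase Psmc3, acts in meiotic recombination and is not a proteasome subunit.

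The libraries come from primary cultures of ventral spinal cord of wild type Sprague-Dawley rat embryos (E14), which contain neurons and glia. The control group was untreated (n = 5). The polyP group received synthetic long-chain polyphosphate, a linear polymer of phosphate, at 100 μM (n = 5). The other cultures received medium conditioned by mouse spinal cord astrocytes expressing human SOD1, either the wild type protein (wtSOD1-ACM, n = 4) or the G93A form that causes familial amyotrophic lateral sclerosis (mutSOD1-ACM, n = 5). Every exposure lasted 90 min. The age of the cultures is 7 days in vitro in one label and 4 in another, and the growth protocol gives an upper age of 9. None of the libraries analysed here received medium from astrocytes without a human SOD1 transgene, so an effect of conditioned medium as such cannot be told apart from that of wild type SOD1. By its title, the series looks for transcripts that respond alike to polyP and to mutSOD1-ACM.

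The proteasome is the main protease for proteins marked with ubiquitin. Its 20S core is a barrel of alpha and beta rings with the proteolytic sites inside, and the 19S particle on either end binds ubiquitin chains, unfolds the substrate with its ATPases and passes it into the core. Interferons and other inflammatory signals replace the constitutive catalytic subunits with the inducible ones, giving the immunoproteasome, which supplies peptides to MHC class I and is found in microglia among the cells of the nervous system. When proteolysis falls short, the transcription factor NFE2L1 raises the subunit genes together through antioxidant response elements in their promoters, and protein aggregates that contain ubiquitin are a hallmark of motor neuron disease.

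The promoters of the 3 pairs of constitutive and inducible catalytic subunits are shown because the constitutive member of each pair was called higher with polyP and the inducible member was not. Each line gives 130 bases before and 20 bases after the start of the gene, 5′ to 3′, from RefSeq on the rat assembly GRCr8. Capitals mark matches on either strand to TGACNNNGC, the core of the antioxidant response element, or to the core of the interferon-stimulated response element, searched as GAAA, any 2 bases and GAAA.
Psmb5: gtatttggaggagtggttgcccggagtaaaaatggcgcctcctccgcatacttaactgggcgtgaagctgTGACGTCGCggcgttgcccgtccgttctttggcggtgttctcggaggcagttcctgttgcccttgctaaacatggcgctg
Psmb8: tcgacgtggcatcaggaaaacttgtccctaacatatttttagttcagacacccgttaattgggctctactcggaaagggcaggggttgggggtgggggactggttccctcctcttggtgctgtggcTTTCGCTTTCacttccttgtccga
Psmb6: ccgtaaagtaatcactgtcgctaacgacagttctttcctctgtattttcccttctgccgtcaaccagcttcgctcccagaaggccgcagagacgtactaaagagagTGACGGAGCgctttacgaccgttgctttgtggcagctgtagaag
Psmb9: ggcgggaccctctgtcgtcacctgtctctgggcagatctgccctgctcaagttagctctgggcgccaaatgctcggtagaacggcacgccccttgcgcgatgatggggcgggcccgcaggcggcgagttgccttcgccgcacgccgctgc
Psmb7: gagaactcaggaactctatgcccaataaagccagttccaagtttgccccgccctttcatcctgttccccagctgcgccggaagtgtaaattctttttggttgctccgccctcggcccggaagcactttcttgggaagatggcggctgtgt
Psmb10: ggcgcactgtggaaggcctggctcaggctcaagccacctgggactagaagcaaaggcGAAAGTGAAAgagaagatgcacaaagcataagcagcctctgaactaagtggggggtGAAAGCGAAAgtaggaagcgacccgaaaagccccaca

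Psmb5 (chr15:32047360-32047509, minus strand) held the antioxidant core at -60 from the start and Psmb6 (chr10:55737758-55737907, plus strand) at -24. Psmb8 (chr20:4657012-4657161, minus strand) held the interferon core at -4, and Psmb10 (chr19:50743273-50743422, minus strand) held it at -73 and -17. Neither motif was present in the printed stretch of Psmb9 (chr20:4668870-4669019, plus strand) or Psmb7 (chr3:42827451-42827600, minus strand). In all, 43 of the 48 genes had a RefSeq promoter of 300 bases (250 before and 50 after the start), among them 27 of the 31 constitutive subunits of the 26S proteasome. Psma7, Psmb11, Psmd6, Psmd12 and Psmd14 had none in the table. TGACNNNGC occurred in 8 of the 43 promoters (18.6%), against 12.2% of all 27457 promoters of that length. The interferon core occurred in 7 (16.3%), against 3.77% of all. CCAAT, the CCAAT box, occurred in 21 (48.8%), against 37.7%. TTCNNNGAA, the gamma-activated site, occurred in 4 (9.3%), against 8.68%, and a loose form of the NF-kB site, GGG, any 5 bases and CC, in 27 (62.8%), against 48.5%. Among the 27 constitutive subunits the antioxidant core occurred in 6 (22.2%) and the interferon core in 3 (11.1%), namely Psma4, Psmb3 and Psmd7. Those 3 and Psmg4, which also held the interferon core, were called higher with polyP. Psme4, whose difference with polyP was negative and not called, held the antioxidant core. Both strands were searched and matches to different motifs could overlap. These matches describe letters in the promoters, and binding was not measured.

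The 19 libraries had between 11309 and 11723 genes at an FPKM of 1 or more, and relative depth ran from 0.754 to 1.53 of a reference library. Absolute depth is unknown. The sum of all FPKM was 1.08 times higher with polyP than in the controls (exact two-sided permutation p = 0.00794, the smallest that 5 against 5 can give). Clustering of the libraries, done after the data were examined, gave 3 classes that cut across the treatments and hold 5, 6 and 8 libraries. Class a holds control 1, polyP 1 and 2 and mutSOD1-ACM 1 and 2. Class b holds control 2 and 3, polyP 3, wtSOD1-ACM 1 and 2 and mutSOD1-ACM 3, and class c holds the last 2 libraries of each group. Classes a and b together form set 1 (11 libraries) and class c is set 2 (8 libraries). The labels give no batch. Neuronal markers were abundant, with Tubb3 between 361 and 773 FPKM, whereas the motor neuron markers Chat (at most 1.34 FPKM), Isl1 (at most 0.45) and Mnx1 (0 to 0.14) were at or near 0. The summed FPKM of 7 microglial markers was 28.4 to 38.9 in class c and 379 in control 2, the highest library, which also had the lowest summed neuronal markers (611).

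Proteasome genes were expressed in every library. Together the 48 genes made up 0.777% ± 0.0406 (SD, n = 5) of summed FPKM in the controls and 0.818% over all libraries. Per unit of length the most abundant were Psmb4 (median over the 19 libraries 228 FPKM), Psma7 (208 FPKM) and Psmb1 (200 FPKM), all subunits of the 20S core. The constitutive catalytic subunits Psmb5 (167 FPKM), Psmb7 (166 FPKM) and Psmb6 (145 FPKM) stood close to one another. The medians of the 19S subunits ran from 35.6 FPKM for Psmd11 to 144 FPKM for Psmd2, the large scaffold subunit, and the assembly chaperones lay between 14.3 FPKM (Psmg2) and 36.9 FPKM (Psmg4). The inducible subunits were low, with medians of 0.80 FPKM for Psmb8, 1.23 FPKM for Psmb9 and 14.1 FPKM for Psmb10. Among the controls, the coefficient of variation of the 31 constitutive 26S subunits had a median of 9% (4.5% to 13.1%). With wtSOD1-ACM the median was 3.43%.

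After 90 min of polyP nearly the whole constitutive proteasome rose by a similar, small amount. Of the 47 genes tested, 40 were higher than in the controls and 0 lower (limma, adjusted p under 0.05), against a background of 23.0% of all tested genes called higher and 8.77% lower. All 31 constitutive 26S subunits rose, by 0.16 (Psmc4) to 0.39 (Psma2) on the log2(FPKM + 1) scale, with a median of 0.32. The median over the 47 genes was 0.30, and over all 11887 tested genes 0.04. The libraries of the 2 groups did not overlap for 30 of the 47 genes, all with higher values with polyP, where 14.6% of all tested genes lay wholly above the controls and 4.31% wholly below. The 7 genes not called were Psma8, the inducible subunits Psmb8, Psmb9 and Psmb10, and the activators Psme1, Psme2 and Psme4.

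**Figure D1:**
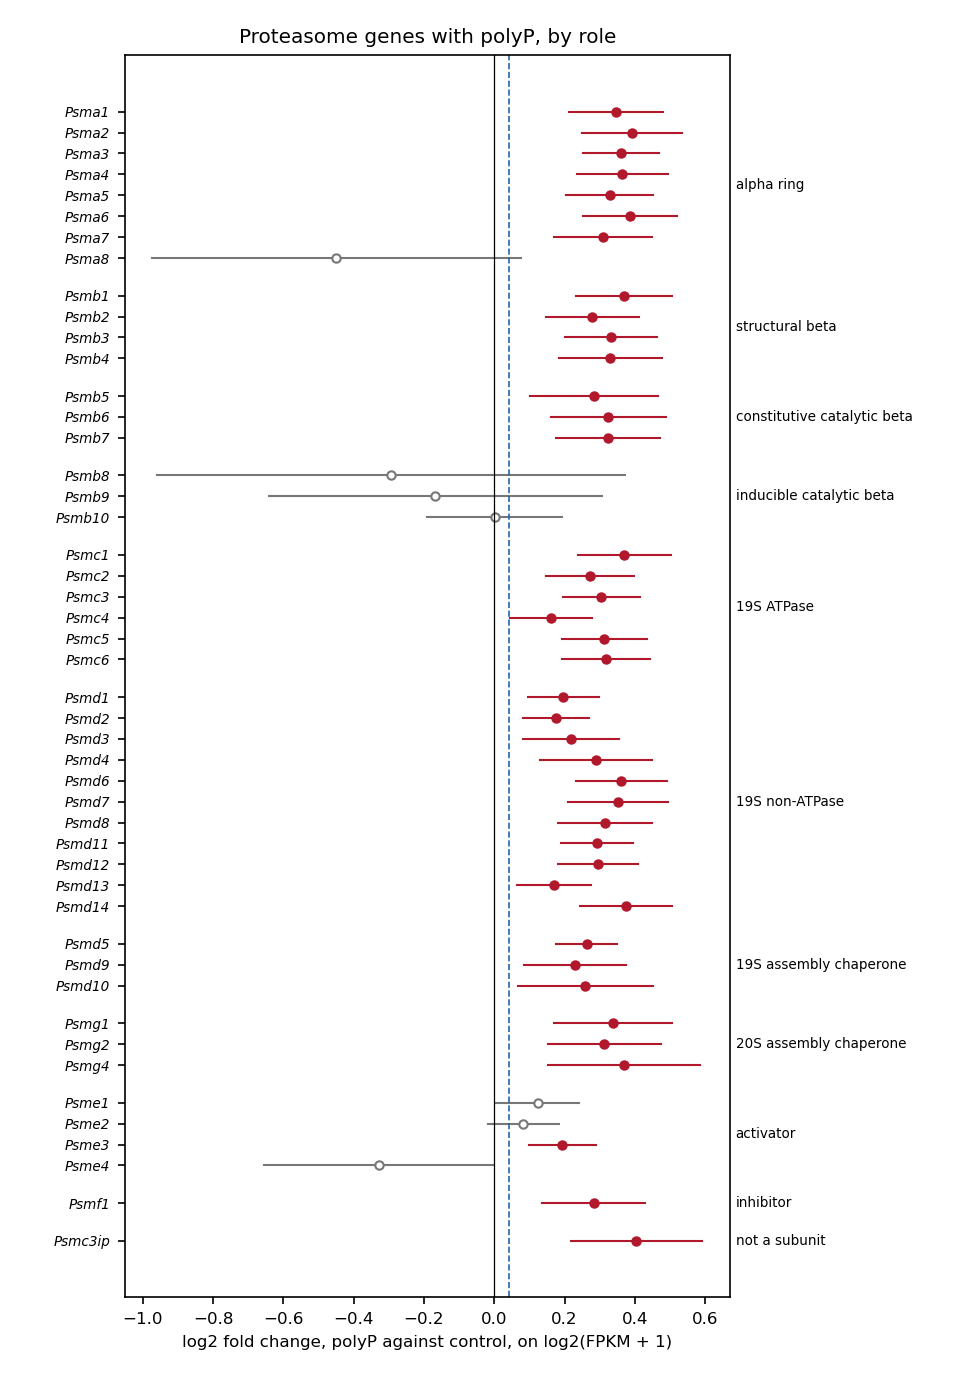
Log2 fold change (x axis, on log2(FPKM + 1), with the 95% interval from limma) of the 47 tested genes with polyP against control, ordered by role (y axis). Filled red circles passed an adjusted p of 0.05 and open grey circles did not, and the dashed line is the median of all tested genes (0.04). The constitutive 26S subunits lie between 0.16 and 0.39. Psmb8, Psmb9, Psme4 and Psma8 have wide intervals that include 0 or end close to it. That of the inducible subunit Psmb10 is narrower, from -0.19 to 0.19.

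The size of the rise depended on how libraries were scaled, and the median of the 47 genes was positive under each scaling (0.19 with equal sums). With FPKM scaled to an equal sum in each library, which moved the median of all genes by -0.10, 31 of the 47 genes were higher and 0 lower, and calls over all genes changed from 2736 higher and 1043 lower (72.4% higher) to 1404 higher and 1667 lower (45.7% higher). Scaling by the median of ratios gave 34 of the 47 higher (1912 higher and 1474 lower over all genes, 56.5% higher), and quantile normalization also gave 34. The median of the 47 genes stood 0.26 above that of all genes as deposited, 0.25 above it with equal sums or the median of ratios, and 0.18 above it after quantile normalization. Within set 1 alone 27 were higher and 0 lower (1819 and 651 over all genes), and within set 2 alone 39 were higher and 1 lower (3336 and 2144). With the 3 classes as a term in the fit, 42 were higher and 2 lower (4121 and 2510).

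As a share of all FPKM, the 48 genes stood at 0.797%, 0.710%, 0.795%, 0.770% and 0.814% in the 5 controls and at 0.884%, 0.895%, 0.840%, 0.903% and 0.894% in the 5 polyP libraries. Every polyP library lay above every control. Control 2, the library with the most microglial RNA, was the lowest of all. The share was 0.798% ± 0.0146 (SD, n = 4) with wtSOD1-ACM and 0.810% ± 0.0183 (SD, n = 5) with mutSOD1-ACM, and both ranges overlapped the controls. In whole cultures fewer cells of a type and less RNA per cell cannot be told apart, and markers of several cell types moved with polyP. Over all tested genes, 23.0% were called higher with polyP and 8.77% lower. The summed FPKM of 5 markers of dividing cells was 199 to 252 in the controls and 288 to 350 with polyP. Of the 5, 3 rose (Pcna, Cdk1 and Ccnb1), and Pcna was the most abundant. Mki67 and Top2a were not called. Mean Mki67 was 17.7 FPKM in the controls and 17.9 FPKM with polyP, and mean Top2a 29.8 and 38.1 FPKM. Microglial markers summed to 33.2 to 379 in the controls and 34.4 to 116 with polyP, with 0 of 7 called. Of 5 fibroblast markers 2 were called lower, while 2 had a positive log2 difference that was not called. Mean Dcn was 8.28 FPKM in the controls and 11.9 FPKM with polyP, and mean Lum 8.24 and 13.5 FPKM. The sum of the 5, in which Col1a1 and Col1a2 were the most abundant, was 509 to 824 in the controls and 332 to 639 with polyP. Of 2 endothelial markers tested Flt1 fell (9.79 ± 0.661 to 6.37 ± 1.08 FPKM, adjusted p = 0.000306), and the summed markers were 10.8 to 14.2 and 7.26 to 10.2 without overlap. Flt1 made up most of that sum. Kdr, with means of 2.13 FPKM in the controls and 1.48 FPKM with polyP, was not called. Cldn5 (at most 0.67 FPKM) and Pecam1 (at most 0.86 FPKM) were near the floor and not tested. Of 6 markers of the oligodendrocyte lineage only Olig1 was called, as higher (80.6 ± 22.2 to 137 ± 23.9 FPKM, adjusted p = 0.0131). A positive difference was seen for 3 of the 6, and the median was 0.003. Their sum was 103 to 730 in the controls and 178 to 743 with polyP. Neuronal markers summed to 611 to 947 and 791 to 1085, with 0 of 5 called. The part of these cells in the rise was not tested.

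**Figure D2:**
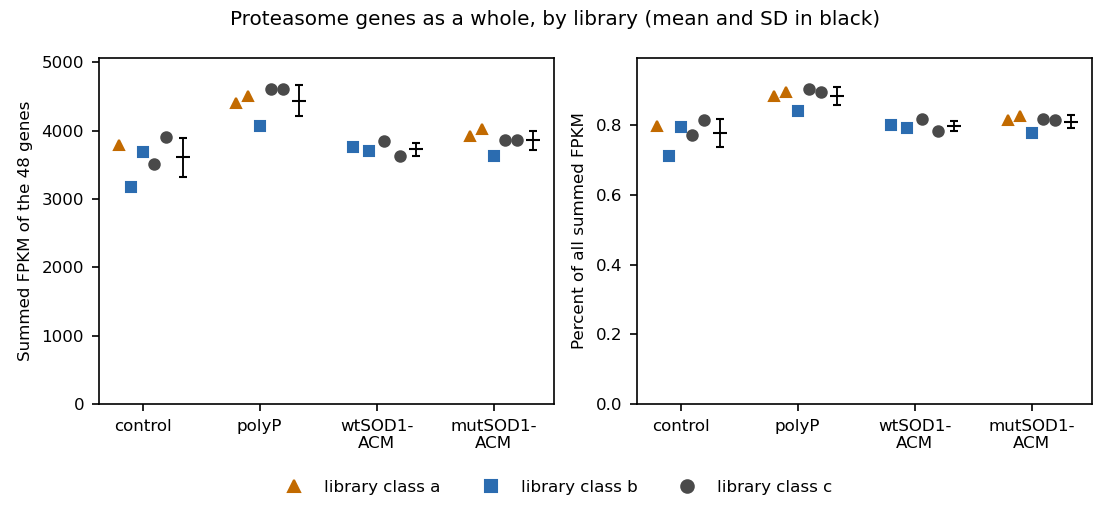
Summed FPKM of the 48 genes (left) and their percent of all summed FPKM (right) in each library, by group. Symbols mark the 3 library classes and black bars the mean and SD. The 5 polyP libraries lie at 0.840% to 0.903%, above the highest control at 0.814%.

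In the alpha ring, which gates the entrance to the core, the 7 general subunits all rose and the median of the 8 genes was 0.35. Psma2 (gene 29669) stood at 140, 110, 139, 125 and 137 FPKM in the controls and at 174, 187, 156, 172 and 165 FPKM with polyP. The groups did not overlap, and the means of 130 ± 13.1 and 171 ± 11.4 FPKM (SD, n = 5 each) differed by 0.39 ± 0.07 (SE) on the log2 scale (limma adjusted p = 0.000412). Psma6 (gene 29673) stood at 127, 99.6, 125, 111 and 128 FPKM in the controls and at 155, 161, 142, 156 and 158 FPKM with polyP. That rise of 0.39 ± 0.06 had an adjusted p of 0.000307 in limma. Psma8, which replaces Psma7 in spermatocytes, was near the floor in both groups, at 1.58 ± 0.461 and 0.922 ± 0.494 FPKM (SD, n = 5 each), and was not called (adjusted p = 0.182). It was called lower with the replicate number as a block (adjusted p = 0.0298), with the set (0.0306) or with the class as a term (0.0285).

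The 4 structural beta subunits rose with a median of 0.33. Psmb1 went from 185 ± 19.5 to 238 ± 14.4 FPKM (SD, n = 5 each), a rise of 28.9%, and Psmb3 from 103 ± 9.30 to 130 ± 8.44 FPKM, a rise of 25.9%. Neither pair of groups overlapped.

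The 3 constitutive catalytic subunits rose as well. Psmb5, which carries the chymotrypsin-like site (gene 29425), stood at 160, 133, 152, 154 and 187 FPKM in the controls and at 189, 189, 160, 210 and 209 FPKM with polyP. The groups overlapped through control 5 and polyP 3, and the difference of 0.28 ± 0.09 (SE) had an adjusted p of 0.0177 in limma. Without control 2 its adjusted p was 0.0543, and without polyP 4 it was 0.0512. With equal sums it was 0.0876, a rise of 0.17. Psmb6, the caspase-like subunit (gene 29666), stood at 142, 111, 134, 123 and 157 FPKM in the controls and at 168, 165, 145, 179 and 178 FPKM with polyP. These groups overlapped through the same libraries, with a difference of 0.32 ± 0.08 (adjusted p = 0.00419). Psmb7, the trypsin-like subunit (gene 85492), stood at 162, 125, 157, 147 and 167 FPKM in the controls and at 192, 190, 169, 195 and 200 FPKM with polyP. Here every polyP library lay above every control (0.32 ± 0.07, adjusted p = 0.00203).

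Their inducible counterparts did not pass the test, and the difference between the members of a pair was not tested. Psmb8 (gene 24968) stood at 0.92, 4.03, 1.37, 0.26 and 0.60 FPKM in the controls and at 1.13, 0.60, 1.74, 0.33 and 0.34 FPKM with polyP. Psmb9 (gene 24967) stood at 1.37, 4.01, 1.69, 0.81 and 1.13 FPKM in the controls and at 1.35, 1.32, 1.59, 1.19 and 1.23 FPKM with polyP. Control 2 was the highest library for both, and the groups overlapped. The log2 differences were -0.29 (95% interval -0.96 to 0.37, adjusted p = 0.503) for Psmb8 and -0.17 (-0.64 to 0.31, adjusted p = 0.599) for Psmb9. Without control 2 both differences changed sign, to 0.01 and 0.07. Psmb10 (gene 291983) stood at 11.9, 16.6, 15.0, 13.6 and 15.6 FPKM in the controls and at 13.9, 12.0, 15.5, 14.9 and 16.4 FPKM with polyP. The groups covered nearly the same range, and the log2 difference was 0.00 with a 95% interval from -0.19 to 0.19, which was -0.11 with equal sums.

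The ratio of an inducible subunit to its constitutive counterpart varied with the library class. Psmb8 was 0.157% to 3.03% of Psmb5 over the 19 libraries, with means of 0.534% ± 0.157 in class a (SD, 5 libraries), 1.41% ± 0.809 in class b (6 libraries) and 0.268% ± 0.0931 in class c (8 libraries). Over the treatments the means were 1.00% ± 1.17 in the controls and 0.464% ± 0.391 with polyP (SD, n = 5 each). Psmb9 was 0.368% to 3.60% of Psmb6, with means of 0.95% ± 0.24 in class a (SD), 1.53% ± 1.03 in class b and 0.604% ± 0.11 in class c. Psmb10 was a larger fraction of Psmb7, at 9.78% ± 2.16 in the controls, 7.72% ± 1.07 with polyP (SD, n = 5 each), 8.77% ± 0.201 with wtSOD1-ACM (n = 4) and 8.51% ± 1.09 with mutSOD1-ACM (n = 5). The ranges of controls (7.36% to 13.3%) and polyP (6.33% to 9.21%) overlapped. Summed microglial markers averaged 68.5 FPKM in class a, 198 in class b and 34.1 in class c. The mean ratios of Psmb8 and Psmb9 followed the same order. That of Psmb10 did not, at 7.25% ± 0.692 in class a (SD), 9.9% ± 1.73 in class b and 8.68% ± 0.664 in class c. The part of microglial RNA in these ratios was not tested.

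**Figure D3:**
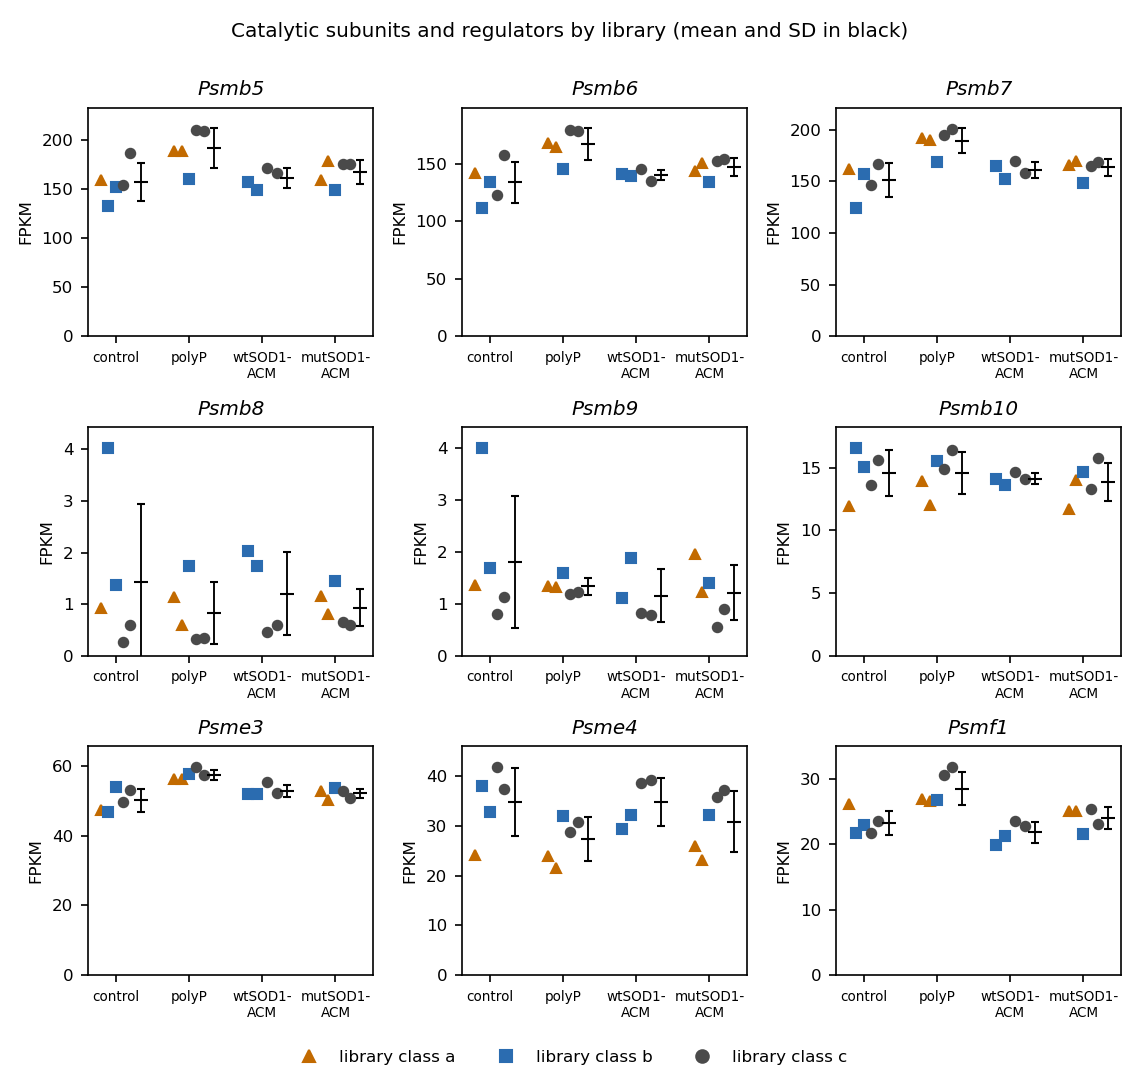
FPKM (y axes, from 0) of the 3 constitutive and 3 inducible catalytic subunits, 2 activators and the inhibitor in each library, by group. Symbols mark the library classes and black bars the mean and SD (the lower bar of Psmb8 in the controls runs below 0 and is truncated). Control 2 stands at 4.03 FPKM for Psmb8 and 4.01 FPKM for Psmb9, and control 1, of class a, stands at 24.1 FPKM for Psme4, below the other controls.

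In the base of the 19S particle, the 6 ATPases that unfold substrates all rose, with a median of 0.31. Psmc1 went from 106 ± 8.47 to 137 ± 8.24 FPKM (SD, n = 5 each; 0.37 ± 0.06, limma adjusted p = 0.000355) and Psmc6 from 37.1 ± 3.41 to 46.4 ± 2.69 FPKM (0.32 ± 0.06, adjusted p = 0.000694). Psmc4 had the smallest rise of all constitutive subunits, from 101 ± 6.64 to 113 ± 7.15 FPKM (11.9%, adjusted p = 0.0335), and its groups overlapped. The 11 other 19S subunits also rose, with a median of 0.29. Psmd14, the deubiquitinase that removes ubiquitin chains from substrates (gene 311078), stood at 56.6, 46.4, 55.7, 46.6 and 54.7 FPKM in the controls and at 68.2, 70.6, 62.6, 68.1 and 68.3 FPKM with polyP. All polyP libraries lay above all controls (0.37 ± 0.06, adjusted p = 0.000324). Psmd6 went from 74.9 ± 7.99 to 96.2 ± 4.00 FPKM, a rise of 28.4%. The smallest rises in this group were 12.5% for Psmd13 and 13.0% for Psmd2.

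The assembly chaperones rose along with the subunits. All 3 chaperones of the 20S core in the table were higher (median 0.34), Psmg4 from 33.2 ± 4.92 to 43.0 ± 5.44 FPKM (0.37 ± 0.10 (SE), limma adjusted p = 0.0108) and Psmg1 from 30.8 ± 3.81 to 39.1 ± 3.16 FPKM (0.34 ± 0.08, adjusted p = 0.00361), and none of the 3 had overlapping groups. Psmg3 was not analysed here. Of the 3 chaperones of the 19S base, Psmd5 rose from 25.6 ± 0.797 to 30.9 ± 1.20 FPKM (0.26 ± 0.04, adjusted p = 0.000215) without overlap. Psmd10, also known as gankyrin, went from 14.8 ± 2.36 to 17.8 ± 1.36 FPKM (adjusted p = 0.0387), and this call did not hold with equal sums (adjusted p = 0.225), without control 2 (0.115) or without any of 5 other libraries left out singly (controls 1 and 5, polyP 1, 2 and 5).

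The activators, caps that open the core without ubiquitin, did not rise as a group. Psme3, the nuclear PA28 gamma subunit (gene 287716), stood at 47.3, 47.0, 54.1, 49.7 and 53.2 FPKM in the controls and at 56.3, 56.4, 57.8, 59.7 and 57.4 FPKM with polyP. It was the only activator called (0.19 ± 0.05 (SE), limma adjusted p = 0.00336), its groups did not overlap, and with equal sums its rise was 0.08 (adjusted p = 0.184). Psme1 stood at 36.1, 40.2, 40.5, 33.6 and 37.1 FPKM in the controls and at 41.5, 40.0, 39.9, 41.4 and 41.5 FPKM with polyP. Psme2, its partner in the interferon-inducible PA28 ring, stood at 24.9, 26.6, 26.6, 27.5 and 27.5 FPKM in the controls and at 27.6, 27.2, 26.8, 29.4 and 30.4 FPKM with polyP. Neither was called, with log2 differences of 0.12 (95% interval 0.01 to 0.24, adjusted p = 0.102) and 0.08 (-0.02 to 0.18, adjusted p = 0.202), and the second was -0.03 with equal sums. With the class as a term their adjusted p was 0.0127 and 0.0361.

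Psme4, the large PA200 cap, was the only gene besides Psma8 and the inducible subunits Psmb8 and Psmb9 with a negative difference (gene 498433). It stood at 24.1, 38.1, 32.8, 41.8 and 37.5 FPKM in the controls and at 23.9, 21.6, 31.9, 28.9 and 30.7 FPKM with polyP. The groups overlapped because control 1, like the other class a libraries, was low. The difference was -0.33 ± 0.16 (SE) with an adjusted p of 0.118 in limma. It was called lower without control 1 (-0.45, adjusted p = 0.0236), with the class as a term (-0.25, adjusted p = 0.00448) and within set 2 (-0.40, adjusted p = 0.000912). The inhibitor Psmf1, known as PI31 (gene 689852), stood at 26.1, 21.8, 22.9, 21.7 and 23.6 FPKM in the controls and at 26.8, 26.6, 26.7, 30.6 and 31.8 FPKM with polyP. Its lowest polyP library lay just above its highest control (0.28 ± 0.07, adjusted p = 0.00475).

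Psmc3ip, the match that is no subunit (gene 140938), had the largest rise of the 47 genes tested. It stood at 12.9, 10.6, 11.9, 13.3 and 14.0 FPKM in the controls and at 17.2, 16.7, 13.7, 17.7 and 19.4 FPKM with polyP, with an overlap through polyP 3 (0.40 ± 0.09 (SE), limma adjusted p = 0.00221).

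Genes that work with the proteasome but lie outside the symbol rule also rose in part. Of 9 partners of the particle, 6 were higher with polyP and 0 lower, with a median of 0.23. Of all tested genes, 23.0% were called higher with polyP and 8.77% lower. The deubiquitinase Uchl5 went from 8.76 ± 0.911 to 12.2 ± 0.552 FPKM (0.44, limma adjusted p = 0.00015), the small 19S subunit Sem1 from 89.3 ± 10.4 to 117 ± 6.30 FPKM (0.39, adjusted p = 0.000537) and the associated thioredoxin Txnl1 from 78.5 ± 8.89 to 99.7 ± 5.60 FPKM (0.35, adjusted p = 0.00214). Pomp, which matures the core, rose by 0.26 (adjusted p = 0.00919). Adrm1, a ubiquitin receptor of the 19S particle, was not called, with 87.2 ± 6.52 FPKM in the controls and 96.9 ± 8.37 FPKM with polyP (SD, n = 5 each; adjusted p = 0.0771). Of 19 ubiquitin genes and enzymes of its transfer, 11 rose and 0 fell, with a median of 0.26. Ube2l3, Ube2d2 and Rps27a, a pair of conjugating enzymes and a ubiquitin fusion gene, had the smallest p and rose by 0.41, 0.34 and 0.43. The activating enzyme Uba1 (199 ± 13.0 and 200 ± 17.5 FPKM) was not called.

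For NFE2L1, which controls the subunit genes, only RNA of genes around it was examined, and its activity was not measured. Nfe2l1 was not analysed here. Of 11 genes that process NFE2L1, partner with it or are related to it, 4 rose and 3 fell, with a median of -0.03. Beside this list and those that follow, 23.0% of all tested genes were called higher with polyP and 8.77% lower. The shuttle factor Rad23b rose from 142 ± 15.9 to 187 ± 7.74 FPKM (0.40, limma adjusted p = 0.00105). The small Maf protein Maff fell by 0.33, from 28.8 ± 3.07 to 22.6 ± 0.562 FPKM (adjusted p = 0.00165). Ddi2, the protease that activates NFE2L1, stood at 17.2 ± 0.868 and 17.0 ± 1.31 FPKM (adjusted p = 0.847). In the MHC class I pathway, which the immunoproteasome serves, 4 of 11 genes fell and 0 rose, with a median of -0.33. Erap1 fell by 0.47 (adjusted p = 0.0111), RT1-CE5 by 0.46 (adjusted p = 0.0142) and Tapbp by 0.30 (adjusted p = 0.0352). The class I genes are close paralogs, so reads can be split among them. Of 7 NF-kB targets, Icam1 (by 0.74, adjusted p = 0.00149) and Cxcl1 (by 0.39, adjusted p = 0.0485) fell by these amounts on the log2 scale and 0 rose.

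With wtSOD1-ACM, 0 of the 47 genes were called in either direction in limma (0 at an unadjusted p under 0.05), where 0.564% of all tested genes were called higher and 0.0673% lower. The log2 differences ran from -0.31 to 0.11 with a median of 0.04, against 0.00 for all genes. Without control 2 the median of the 47 genes was 0.01, and without control 5 it was 0.07. Psme2 had the smallest p (28.3 ± 0.588 FPKM, SD, n = 4, against 26.6 ± 1.07 FPKM, n = 5; unadjusted p = 0.105 and adjusted p = 1 in limma) and was the only member whose groups did not overlap (1.14% of all tested genes lay wholly above the controls and 0.488% wholly below). The inducible subunits stood at 1.21 ± 0.796 FPKM for Psmb8, 1.16 ± 0.512 FPKM for Psmb9 and 14.1 ± 0.425 FPKM for Psmb10 (SD, n = 4), with overlap in each case. In the same libraries all of a list of 7 NF-kB targets rose, among them Cxcl1 (2.82 ± 0.411 to 91.6 ± 21.5 FPKM), Ccl2 (4.28 ± 2.37 to 134 ± 37.4 FPKM) and Icam1 (19.0 ± 6.23 to 90.6 ± 11.8 FPKM). Irf1, a transcription factor that drives Psmb8 and Psmb9, rose from 2.59 ± 0.820 to 6.26 ± 1.47 FPKM (1.02, limma adjusted p = 0.00157). Of the 11 genes around NFE2L1 only Maff was called (0.54, adjusted p = 0.00058), and 0 of 9 partners and 0 of 19 ubiquitin genes were. The 95% interval of the log2 difference was -0.75 to 0.67 for Psmb8, -0.81 to 0.19 for Psmb9 and -0.24 to 0.17 for Psmb10.

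With mutSOD1-ACM, again 0 of the 47 genes were called in either direction in limma, where 0.0168% of all tested genes were called higher and 0 lower. At an unadjusted p under 0.05, 8 were higher and 0 lower, namely Psma3, Psmb4, Psmc1, Psmc3, Psmc6, Psmd5, Psmd11 and Psmd12, and their adjusted p was 0.966. Over all 11887 tested genes 301 were higher and 125 lower at that threshold. All 31 constitutive 26S subunits had a positive difference, from 0.02 to 0.16, as did 28 of them with equal sums or quantile normalization and 29 without control 2. With wtSOD1-ACM, against the same controls, 29 of the 31 were positive. A positive difference with mutSOD1-ACM was seen for 6137 of all 11887 tested genes. The median over the 47 genes was 0.10 against 0.00 for all genes, and without control 2 it was 0.05. Psmc1 had the smallest p, at 117 ± 9.03 FPKM (SD, n = 5) against 106 ± 8.47 FPKM in the controls (0.15 ± 0.06 (SE), unadjusted p = 0.0279), with overlapping groups. The catalytic subunits Psmb5 (168 ± 12.6 FPKM), Psmb6 (147 ± 8.01 FPKM) and Psmb7 (164 ± 8.56 FPKM) lay between their control and polyP means. With equal sums the median of the 47 genes was 0.07, and that of all genes -0.03.

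**Figure D4:**
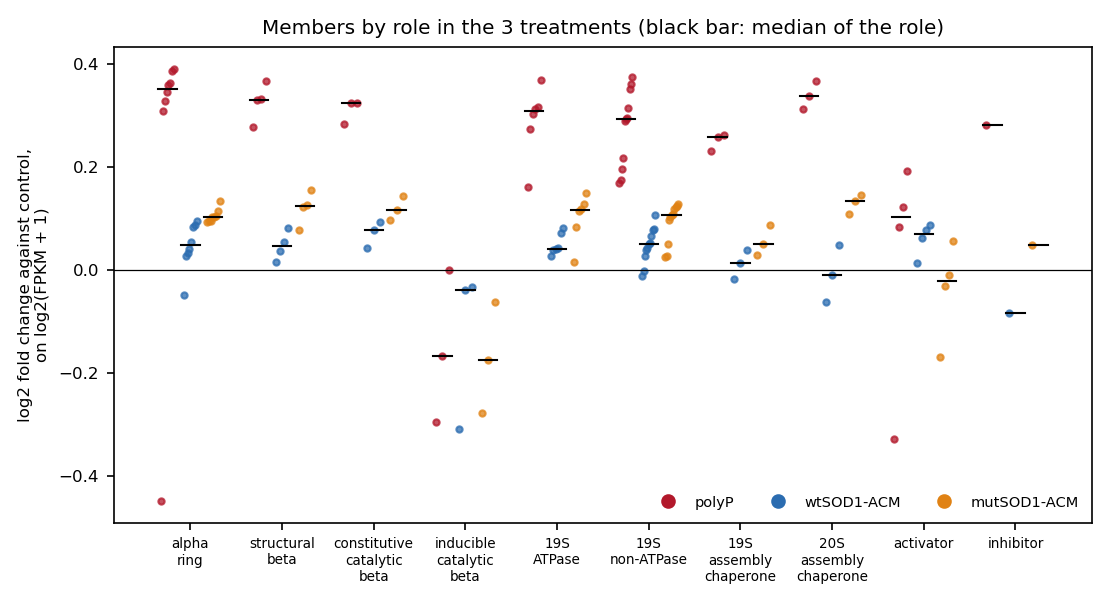
Log2 fold change against control (y axis, on log2(FPKM + 1)) of each tested gene except Psmc3ip with polyP (red), wtSOD1-ACM (blue) and mutSOD1-ACM (orange), by role (x axis). Black bars are medians and the same 5 controls enter all 3 comparisons. The alpha ring has a median of 0.35 with polyP, 0.05 with wtSOD1-ACM and 0.10 with mutSOD1-ACM.

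Between the conditioned media, 0 of the 47 genes were called in either direction in limma, where 0.00841% of all tested genes were higher and 0.463% lower with mutSOD1-ACM. At an unadjusted p under 0.05 there was 1, Psmg2, at 15.0 ± 1.27 FPKM (SD, n = 5) with mutSOD1-ACM and 13.0 ± 1.15 FPKM (n = 4) with wtSOD1-ACM (0.20 ± 0.08 (SE), unadjusted p = 0.0262, adjusted p = 0.832). At that threshold 310 of the 11887 tested genes were higher and 289 lower. The 7 NF-kB targets were all lower with mutSOD1-ACM, led by Cxcl1 (2.58 ± 0.718 FPKM), Icam1 (15.5 ± 1.45 FPKM) and Ccl2 (4.02 ± 1.93 FPKM; SD, n = 5), and Irf1 (2.25 ± 0.478 FPKM) and Maff (28.7 ± 2.42 FPKM) were lower too.

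PolyP was compared with mutSOD1-ACM directly, since a gene called against the controls with 1 treatment and not with the other is not thereby shown to differ between them. Of the 47 genes, 28 were higher with polyP and 0 lower (limma), where 14.8% of all tested genes were called higher and 4.90% lower, and the median was 0.19 against 0.04 for all genes. In 17 of the 47 genes every polyP library lay above every mutSOD1-ACM library, which held for 12.3% of all tested genes, while 3.92% lay wholly below. Of the 31 constitutive 26S subunits 24 were higher, with a range over the 31 of 0.12 to 0.28. Psma6 stood at 129, 131, 121, 125 and 128 FPKM with mutSOD1-ACM, below every polyP library (0.28 ± 0.06 (SE), adjusted p = 0.00686). Psmd14 stood at 58.2, 57.8, 53.5, 52.9 and 55.2 FPKM, also without overlap (0.28 ± 0.06, adjusted p = 0.00642). Psmc3ip stood at 13.8, 13.9, 13.5, 13.5 and 13.9 FPKM and overlapped the polyP group (0.28 ± 0.09, adjusted p = 0.0355). This call did not hold under the other scalings (adjusted p 0.0806 to 0.0973), within set 1 (0.244) or when any single library of both groups except polyP 3 was left out (0.0528 to 0.0975). In the other roles the called genes with the largest differences were Psma4 in the alpha ring, Psmb1 and Psmb3 among the structural beta subunits, Psmc1 and Psmc5 among the ATPases, Psmd6 after Psmd14 among the other 19S subunits, the chaperone Psmd5, the activator Psme3 and the inhibitor Psmf1. Psmb1 stood at 200 ± 9.09 FPKM and Psmc1 at 117 ± 9.03 FPKM with mutSOD1-ACM, and Psmf1 at 24.1 ± 1.67 FPKM (SD, n = 5), which polyP exceeded by 18.8%, 16.5% and 18.4%. Among the catalytic subunits Psmb7 was called (adjusted p = 0.046), while Psmb5 (adjusted p = 0.146) and Psmb6 (adjusted p = 0.12) were not. Outside the symbol rule, 3 of 9 partners were higher with polyP than with mutSOD1-ACM (Uchl5, Sem1 and Usp14), as were 6 of 19 ubiquitin genes, led by Ube2d2, Ube2l3 and Rps27a, and 4 of 11 genes around NFE2L1, among them Ngly1, while Maff was lower.

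The count in this comparison moved with the scaling and with single libraries. It was 8 with equal sums, 4 with the median of ratios and 18 after quantile normalization, with the split over all genes at 787 higher and 746 lower (51.3% higher), 769 and 710 (52.0%) and 1115 and 612 (64.6%), against 1760 and 582 (75.1%) as deposited. It was 0 within set 1 alone, where 60 of all tested genes were higher and 56 lower. It was 34 within set 2 alone (2693 and 1836 over all genes) and 41 with the class as a term (3457 and 1956). Same-numbered libraries deviated together in this comparison, and with the replicate number as a block 33 genes were higher and 1, Psma8, was lower (adjusted p = 0.0186). That fit covered all 19 libraries, so the block also joined control and wtSOD1-ACM libraries by number, where the numbers are only shared labels. The same fit called 2562 of all tested genes higher and 1205 lower. Leaving out 1 library gave 11 without mutSOD1-ACM 3, 13 without polyP 5, 14 without polyP 2, polyP 4 or mutSOD1-ACM 5, and 18 without mutSOD1-ACM 4. Calls higher over all genes were then 1185 without mutSOD1-ACM 3, 1280 without polyP 5 and 1305 without mutSOD1-ACM 4. They were 1173 without polyP 2, 1262 without polyP 4 and 1209 without mutSOD1-ACM 5. The median of the 47 genes stayed above that of all genes in each of these scalings, by 0.12 to 0.15.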

How the data were processed

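The authors deposited 1 table of FPKM, rounded to 2 decimals, for 15597 genes in 19 libraries, per the file headers. Alignment used HISAT and the rn6 build, per the submitters' processing notes. Versions, the tool that made the FPKM, the annotation and any scaling were not given in the sources used here. Libraries were poly(A)-enriched and each condition had 4 to 5 independent cultures, per the labels' protocols, while the design text speaks of quadruplicates. If libraries shared a culture, p-values measure a spread that is in part technical. Count models do not apply to FPKM, and low values carry more counting error to an unknown extent. Relative depth came from 146 rarely detected genes, whose 1134 values were whole multiples of 1 fragment, within 0.1, in 93.6% of cases. The smallest value of each gene matches by construction, so the share describes the fit.

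All 4 groups entered 1 limma fit (limma 3.58.1, statmod 1.5.0, R 4.3.3) on log2(FPKM + 1), with trend and robust empirical Bayes. Genes at an FPKM of 1 or more in at least 4 libraries were tested (11887), and p-values were two-sided, adjusted by Benjamini-Hochberg over these genes and called under 0.05. Every adjusted p in the text is from limma. Fold changes on this scale understate changes of low genes. Errors are SD of FPKM or SE of log2 differences.

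The genes, roles, related lists and tests were chosen with earlier results of these data known. Values in every library are given for the catalytic subunits, Psme1 to Psme4, Psmf1 and the 3 called genes with the largest changes per comparison. In each role the called genes with the 2 largest changes are named, in each related list the called genes with the 3 smallest p, and Pomp, Adrm1 and Ddi2 whatever their result. Some genes that this rule names are not reported here. Others (Psma8, Psmc4, Psmd2, Psmd13, Uba1, the genes named for their level and those named at an unadjusted p) were chosen after their values were seen. Replicate numbers were taken to pair libraries only between polyP and mutSOD1-ACM, where the deviations of same-numbered libraries from their group means correlated at 0.688 to 0.764. In the other comparisons at least 1 pair was under 0.1. Alternatives were the pseudocount (0.1), no filter, 3 scalings, a replicate block, the library set or class as a term, each set alone, only the groups compared, no trend or robust estimation and leaving out each library. Promoters were matched by gene identifier.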

Additional observations from a re-analysis of the deposited data

Results flagged for a closer look

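In 5 of 108 groups of values checked, 1 library stood apart from the rest of its group by Dixon's criterion, and chance alone flags about 1 group in 20. Psmb9 was highest in control 2, at 4.01 FPKM, with the next control at 1.69 FPKM. Psmb7, the trypsin-like subunit, was lowest in mutSOD1-ACM 3, at 149 FPKM, with the next library at 165 FPKM. Summed proteasome genes as a percent of all FPKM were lowest in the same library, at 0.778%, with the next at 0.813%. Psmc6, a 19S ATPase, was lowest in polyP 3, at 41.6 FPKM, with the next library at 46.9 FPKM. Psme3 was highest in wtSOD1-ACM 3, at 55.6 FPKM, with the next library at 52.4 FPKM. Control 2, mutSOD1-ACM 3 and polyP 3 all belong to library class b, whose microglial markers averaged 198 FPKM in sum, and the part of that RNA in these values was not tested.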

How the results depend on the processing

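The count of 40 genes higher with polyP than in the controls stayed within 1.5 times under every alternative, with 37 to 40 when 1 library was left out and 27 within set 1. The count of genes lower, 0 as deposited, was 2 (Psme4 and Psma8) with the replicate block, with the set or the class as a term and with the class as a term and equal sums, 1 (Psme4) within set 2, and 0 to 1 when 1 library was left out. Against mutSOD1-ACM, the 28 genes higher became 8 with equal sums, 4 with the median of ratios, 18 after quantile normalization, 0 within set 1 and 11 to 30 when 1 library was left out. The 0 genes lower became 1 with the replicate block, the set or the class as a term, and 2 with the class as a term and equal sums or within set 2. The cause was not tested. With conditioned medium, 0 genes were called under every alternative in the 3 comparisons.

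The difference of Psmb10 between polyP and control, 0.00, was -0.11 with equal sums, -0.058 with the median of ratios, -0.020 after quantile normalization, -0.047 with the class as a term and equal sums, -0.060 within set 1 and -0.065 to 0.064 when 1 library was left out. Psme2 was -0.027 with equal sums and -0.0058 with the class as a term and equal sums. Psmb9 was 0.17 within set 2 and -0.30 to 0.067 when 1 library was left out, and Psmb8 was -0.49 to 0.012 when 1 library was left out. The remaining single-gene values kept their sign. Among the differences named between polyP and control, 16 lost their call, 8 gained one, 306 kept both call and sign, and 8 changed sign without a call before or after, over the alternatives that kept all libraries of the fit or a set of them.

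Outside the comparison of polyP with mutSOD1-ACM, replicate numbers are only shared labels. For polyP against control the correlations of deviations were 0.635, 0.0681, 0.508, 0.662 and 0.688, and not every library correlated best with its own number. The replicate block there gave 40 genes higher and 2 lower. With no replicate block the counts were 40 and 0. Genes near an FPKM of 1 (Psmb8, Psmb9 and Psma8) are limited by depth that is not known.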
